A study of Homo sapiens with 12 samples.

Results

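The 46 genes described here encode the enzymes and loading factors that copy chromosomal DNA, the enzymes that supply its deoxynucleotide precursors, and the transcription factor E2F1. They were chosen by name, and all 46 were found among the 20375 genes listed for each library. The data are RNA sequencing of polyadenylated RNA from PE/CA-PJ41, a human oral squamous cell carcinoma line. There were 3 groups with n = 4 libraries each: untreated cells (control), cells given human plasma at 10%, and cells given platelet-rich plasma (PRP, plasma enriched in platelets) at 10%. Both treatments lasted 48 h, and the labels give no culture time for the control cells. Nor do they state that replicates came from separate cultures, and a p-value here speaks for the spread among these 12 libraries alone, part of which may be technical. A single line stands for the tumour type, and the labels give no donor or pool for the plasma.

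Before a cell divides, the origin recognition complex, CDC6 and CDT1 load the MCM2 to MCM7 helicase onto DNA, and CDC45 with the GINS complex then turns it into the active replication motor. DNA polymerase alpha with primase starts each strand, polymerases delta and epsilon extend it on the PCNA clamp that the RFC complex loads, and RPA covers exposed single strands. Ribonucleotide reductase, thymidylate synthase and thymidine kinase feed deoxynucleotides to the fork, and E2F factors switch on many of these genes as cells commit to S phase.

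Sequencing depth was similar between groups: the libraries held 36258955 (plasma) to 41976136 (PRP) estimated reads in total. The 46 genes had 470 to 25610 reads each per library, and 38 of them had at least 1000 in every library. Levels are given as TPM (a transcript's share of its library, scaled by transcript length), and differences are on the log2(TPM + 1) scale with their standard error (SE). A gene was called, and is said to have risen or fallen, where limma's adjusted p over all 12517 genes tested was under 0.05. Epithelial markers such as KRT5 and TP63 were present: the 8 markers summed to 11509.9 to 12935 TPM in control libraries, 14138 to 15454 with plasma and 14165 to 15739.5 with PRP. The highest value of a single marker was 8294.9 TPM. Of the 8, 2 were called higher and 2 lower with plasma, and 2 higher and 1 lower with PRP. Their median differences were -0.03 and 0.01. Over all genes, 20.3% were called higher and 29.0% lower with plasma, and 21.7% and 31.5% with PRP. The 6 platelet markers summed to at most 0.718 TPM in any library, with PF4 and GP9 at 0 in all 12. The 5 erythroid and 7 leukocyte markers summed to at most 2.83 and 1.91 TPM, with HBB, ALAS2 and MS4A1 at 0 in all 12. In each group the library numbered 1 had the smallest share of mitochondrially encoded reads, 0.287%, 0.216% and 0.191%, against 0.463% to 0.969% in the other 9.

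With plasma 14 of the 46 replication genes rose, 7 fell and 25 were not called. The largest rises were those of MCM5, a helicase subunit, and GINS1, and the largest falls those of TIPIN, a fork protein, and POLE, the catalytic subunit of polymerase epsilon. Over all 12517 genes tested, 20.3% were called higher and 29.0% lower with plasma. With PRP 19 of the 46 rose, 5 fell and 22 were not called, led by MCM5, UHRF1 and POLD2 among the rises and TIPIN and RPA2 among the falls. Over all genes, 21.7% were called higher and 31.5% lower with PRP. The differences were small: they ran from -0.29 to 0.43 with plasma and from -0.30 to 0.49 with PRP, and none of the 46 reached 2-fold. The median difference of the 46 genes was 0.05 with plasma and 0.08 with PRP, beside -0.05 and -0.06 over all genes tested. Both comparisons use the same 4 control libraries, so they are not independent of each other. In bulk RNA a change in the number of cells in S phase and a change in RNA per cell cannot be told apart.

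Summed over the 46 genes, the level was 3845, 4068, 4189.8 and 4129 TPM in the control libraries, 4329, 4385, 4272 and 4208 with plasma and 4496, 4663, 4400.4 and 4108 with PRP. Every plasma library lay above every control library, but the lowest plasma sum (4208) was close to the highest control sum (4189.8). PRP replicate 4 lay within the control range. Abundant genes weigh most in such a sum, so it does not show a rise across the set. The mean of TK1 was 384 TPM in untreated cells and 477 after plasma, and that of TYMS 251 and 294. Of the 46 genes, 14 rose with plasma, 7 fell and 25 were not called. The spread among the PRP libraries (4417 ± 233 TPM, mean ± SD) was wider than that of plasma (4298 ± 76.3). Among the controls the sum was lowest in replicate 1, where the share of mitochondrially encoded reads was lowest too. With plasma and PRP replicate 1 also had the lowest such share, but its sum was not the lowest (4329 and 4496 TPM).

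How many genes passed changed with scaling and when the 3 libraries numbered 1 were left out. Leaving them out also made each group smaller, and no other set of 3 was left out. The part of group size in that change was therefore not tested. After subtracting each library's median over all genes (median centring), plasma gave 19 rises and 5 falls, and PRP 23 rises and 2 falls. Over all genes that scaling called 26.4% higher and 22.4% lower with plasma, and 28.2% and 24.1% with PRP. With limma's voom on the estimated reads, plasma gave 24 rises and 5 falls, and PRP 27 and 3, where 28.8% and 27.8% of all genes were called with plasma, and 30.4% and 29.9% with PRP. The genes that voom called higher and the TPM test did not were ORC1, MCM2, MCM4, GINS3, RFC1, RFC2, PRIM1, RPA3, FEN1 and RNASEH2A with plasma, and MCM2, MCM4, GINS2, GINS3, RFC1, RFC3, POLD1 and RNASEH2A with PRP. Without the 3 libraries numbered 1, plasma gave 7 rises and 8 falls, and PRP 12 and 8, beside 17.8% and 26.4% of all genes with plasma, and 19.3% and 28.7% with PRP. The calls that ended there were those of MCM3, MCM6, MCM7, POLE2, RPA1, LIG1, RRM2 and E2F1 with plasma (adjusted p 0.054 to 0.15). With PRP they were those of ORC1, MCM7, RFC2, PRIM2, RPA1, FEN1 and LIG1 (adjusted p 0.0542 to 0.202). Leaving out plasma replicate 3 alone lowered the count of genes that fell with plasma from 7 to 4. Under all 24 alternatives run, MCM5, GINS1, POLD2, POLD3, UHRF1, TYMS and TK1 rose with plasma, and ORC6, RFC4, RPA2 and TIPIN fell. The genes called under all 24 with PRP were MCM3, MCM5, MCM6, GINS1, POLD2, POLD3, POLE2, RPA3, UHRF1, TYMS, RRM2 and TK1, which rose, and RPA2 and TIPIN, which fell.

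**Figure D1:**
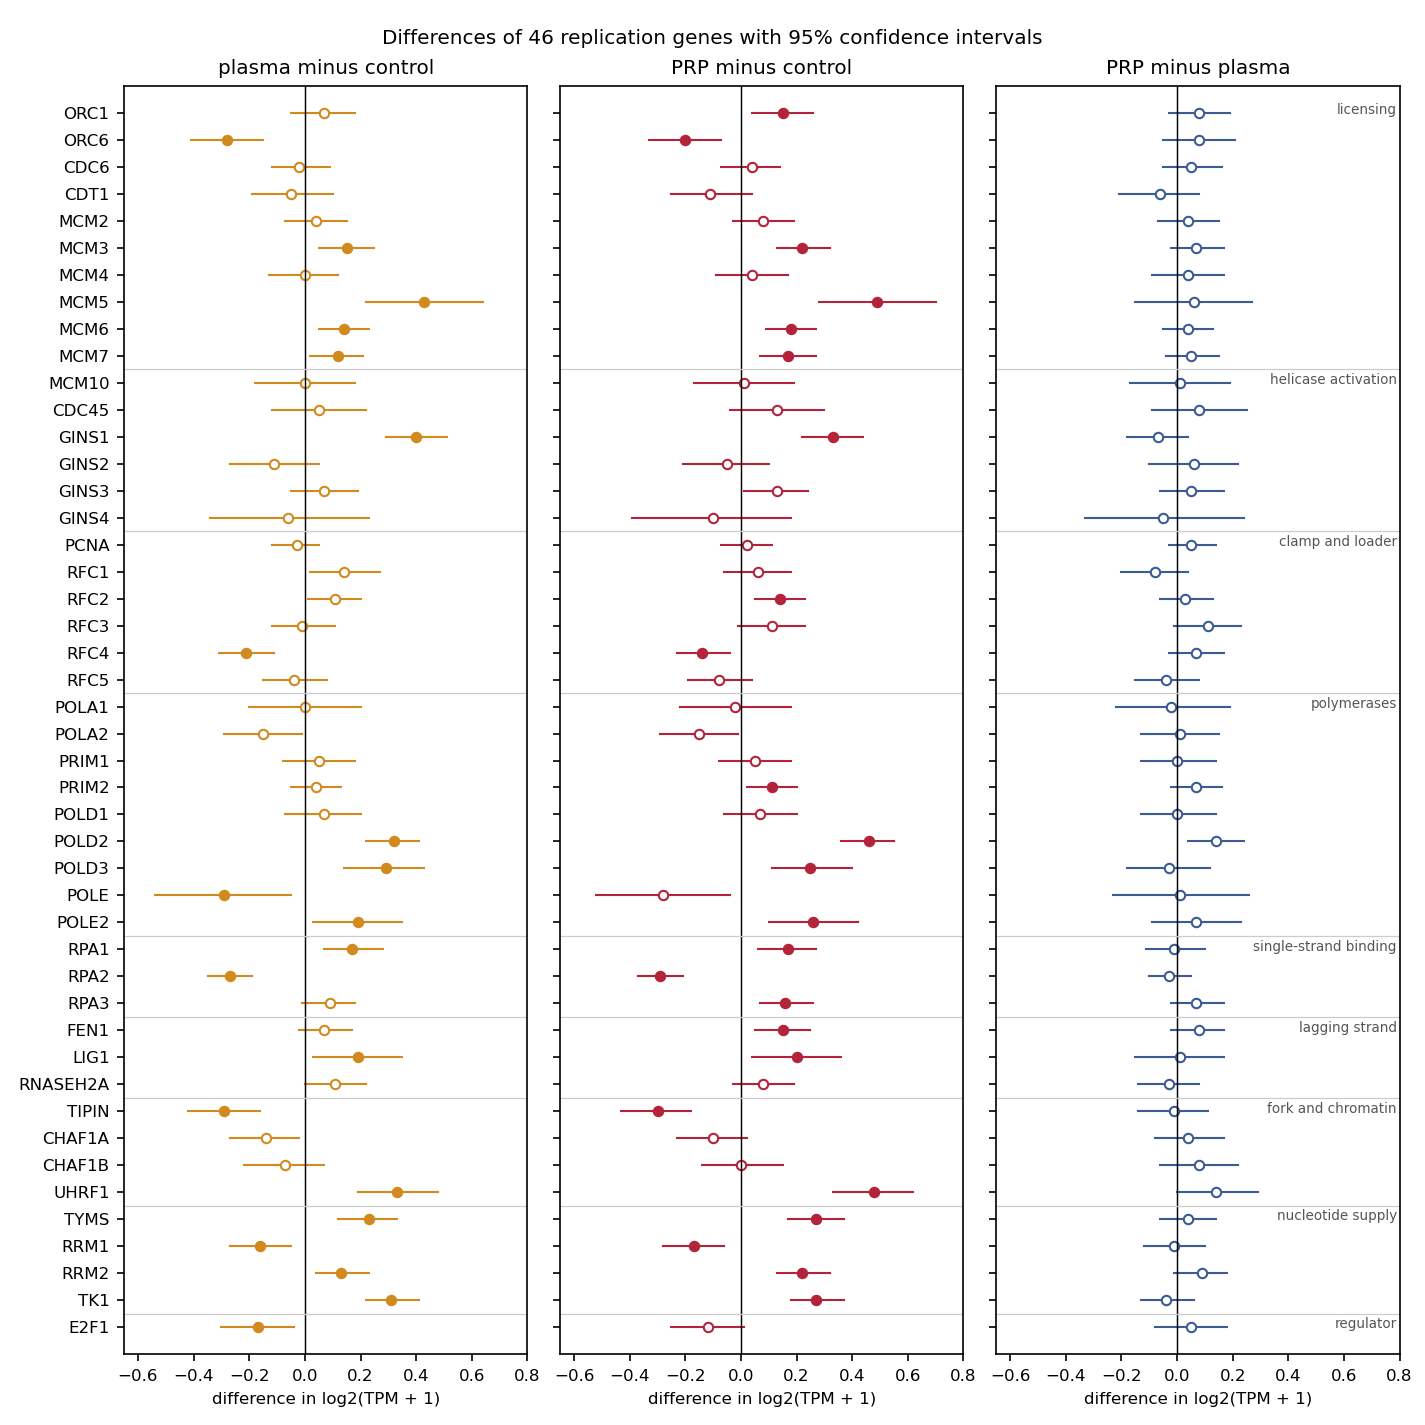
Difference in log2(TPM + 1) for each of the 46 genes, ordered by role, for plasma minus control, PRP minus control and PRP minus plasma. Points are limma estimates, bars 95% confidence intervals, and filled points have an adjusted p under 0.05. Against control 21 points are filled for plasma and 24 for PRP, and none is filled between PRP and plasma.

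The promoters of these genes were read because E2F sites are a textbook feature of replication genes, so it could be asked whether genes that rose and genes that fell differ in holding one. The windows below come from RefSeq promoters (GRCh38.p14, 250 bases before to 50 after a transcript start), written 5′ to 3′ on the gene's own strand. The table holds 52 promoters for 40 of the genes, and where a gene has more than 1, the window is from the promoter with the most matches. In the first 7, capitals mark TTTCCCGC, TTTGGCGC, TTTCGCGC or TTTGCCGC on either strand, the letters of an E2F-type site, and touching or overlapping matches run together. In the last 3, whose promoters hold none of these letters, capitals mark CCAAT on either strand, the letters bound by NF-Y. MCM3, MCM6, UHRF1 and TYMS rose in both comparisons, TIPIN fell in both, E2F1 fell with plasma, and PCNA was not called. TK1, POLD2 and RRM2 rose in both.
MCM3: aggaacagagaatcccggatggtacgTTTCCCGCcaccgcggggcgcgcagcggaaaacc
MCM6: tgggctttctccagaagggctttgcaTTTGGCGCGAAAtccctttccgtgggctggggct
UHRF1: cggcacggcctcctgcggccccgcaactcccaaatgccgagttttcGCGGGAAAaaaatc
TYMS: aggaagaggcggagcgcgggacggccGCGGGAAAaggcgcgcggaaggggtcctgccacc
TIPIN: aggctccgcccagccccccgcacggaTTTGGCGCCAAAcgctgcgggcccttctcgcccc
E2F1: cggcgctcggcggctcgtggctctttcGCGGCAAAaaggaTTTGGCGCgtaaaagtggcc
PCNA: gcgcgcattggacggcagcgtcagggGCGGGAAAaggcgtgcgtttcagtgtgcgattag
TK1: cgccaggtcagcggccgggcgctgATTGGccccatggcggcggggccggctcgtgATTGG
POLD2: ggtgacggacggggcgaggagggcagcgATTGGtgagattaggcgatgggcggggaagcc
RRM2: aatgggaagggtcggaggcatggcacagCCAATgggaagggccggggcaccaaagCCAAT

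Each window is 60 bases long. They lie at chr6:52284883-52284942 (MCM3), chr2:135876562-135876621 (MCM6), chr15:66356718-66356777 (TIPIN), chr20:33686386-33686445 (E2F1), chr20:5126648-5126707 (PCNA), chr17:78187094-78187153 (TK1) and chr7:44123585-44123644 (POLD2) on the minus strand. On the plus strand they lie at chr19:4909441-4909500 (UHRF1), chr18:657588-657647 (TYMS) and chr2:10122618-10122677 (RRM2). In TIPIN the same 12 letters read alike on both strands and hold 2 overlapping matches, and in MCM6 2 matches also overlap. The E2F1 window holds 2 separate matches. The starts of the UHRF1, TIPIN, TK1, POLD2 and RRM2 promoters shown lie inside the gene spans given with their values. TIPIN has another promoter at the outer end of its span, without the E2F-type letters, and 1 of the 2 promoters of PCNA and 1 of the 3 of UHRF1 also lack them.

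A gene was counted as holding the letters if any of its promoters did. Of the 40 genes with a promoter in the table, 20 held the E2F-type letters, against 3.99% of 27305 gene symbols counted the same way (3.31% of all 35116 promoters). CCAAT was present in 26 of the 40, against 39.72% of gene symbols, and GGGCGG, the letters of an Sp1 site, in 30 of the 40, against 48.3%. TTTGAA or TTCGAA, the letters of the cell cycle homology region typical of mitotic genes, was present in 2 of the 40, against 19.54% of gene symbols and 20 of the 24 genes of a mitosis list that had a promoter in the table. The E2F-type letters were in 2 of those 24. MCM4, MCM5, GINS4, POLD3, RPA2 and RPA3 had no promoter in the table and are outside the counts by direction. Among the 40 genes, the E2F-type letters were in 8 of the 12 that rose with plasma, 3 of the 6 that fell and 9 of the 22 not called. With PRP they were in 8 of 16 that rose, 1 of 4 that fell and 11 of 20 not called. The letters therefore stood in promoters of genes that rose, that fell and that were not called. A match is a description of letters, not a measured site.

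Among the licensing genes, which prepare origins before S phase, 4 of 10 were called higher and 1 lower with plasma, and 5 higher and 1 lower with PRP. Role counts here and below are to be read beside the shares over all genes. These were 20.3% higher and 29.0% lower with plasma, and 21.7% and 31.5% with PRP. MCM5 (chr22:35400140-35455031), a subunit of the helicase ring, measured 87.3, 112, 103 and 91.1 TPM in the control libraries, 146, 134, 130.0 and 119 with plasma and 147, 163, 125 and 121 with PRP. Every treated library lay above every control library, and the PRP libraries spread most widely. The mean was 1.34 times that of control with plasma and 1.41 times with PRP, differences of 0.43 ± 0.10 (SE, adjusted p = 0.00261) and 0.49 ± 0.10 (adjusted p = 0.000831). These were the largest rises of the 46 genes in either comparison.

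The other 5 ring subunits had smaller differences. MCM3 measured 130.2, 135, 133 and 132 TPM in the control libraries, 152, 144, 145 and 147 with plasma and 163, 167, 150.2 and 142 with PRP. Neither treated group overlapped control, and the gene rose by 0.15 ± 0.04 with plasma (SE, adjusted p = 0.0133) and 0.22 ± 0.04 with PRP (adjusted p = 0.000851). MCM6 measured 54.6, 60.8, 59.1 and 59.5 TPM in the control libraries, 63.1, 64.2, 65.5 and 65.1 with plasma and 66.99, 68.5, 67.3 and 63.01 with PRP. All 8 treated libraries exceeded the highest control library, and differences of 0.14 and 0.18 passed the test (adjusted p = 0.0129 and 0.00211). MCM7 measured 214, 225, 223 and 224 TPM in the control libraries, 239, 247, 239 and 236 with plasma and 256, 268, 250.2 and 225 with PRP. The plasma libraries lay above all controls, while PRP replicate 4 lay within the control range. Its differences were 0.12 and 0.17 (adjusted p = 0.0448 and 0.0059), and the call with plasma ended without any 1 of the control or plasma libraries, or of PRP replicates 1 and 3 (adjusted p 0.0514 to 0.108). That call also ended without the filter on low values (0.0637) and without limma's variance trend (0.0801). MCM2, the ring subunit that binds histones, measured 112, 125, 122 and 117 TPM in the control libraries, 125, 126, 119 and 119.9 with plasma and 133, 134, 121 and 116 with PRP. Its groups overlapped, and it was not called on TPM (0.04 and 0.08, adjusted p = 0.504 and 0.19). Voom called it higher in both comparisons (0.11 and 0.16, adjusted p = 0.0271 and 0.0034), and median centring with PRP (0.15, adjusted p = 0.0119). In a GENCODE annotation 30.7% of its exonic bases are shared with an antisense transcript, and no source used here says whether reads were counted by strand. MCM4, at 256 ± 17.2 TPM in control (mean ± SD) the most abundant ring subunit, was not called on TPM (0.00 and 0.04). Voom called it higher in both comparisons (0.12 and 0.18, adjusted p = 0.0317 and 0.00218), and its effective length differed by 0.06 and 0.07 on the log2 scale.

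Of the 2 origin recognition subunits among the 46, ORC6 fell in both comparisons and ORC1 rose with PRP. ORC6 measured 43.3, 48.00, 48.6 and 50.6 TPM in the control libraries, 39.3, 41.9, 36.8 and 38.01 with plasma and 39.8, 41.3, 45.7 and 38.6 with PRP. The plasma libraries all lay below the controls, whereas PRP replicate 3 overlapped them. The difference was -0.28 ± 0.06 with plasma (SE, adjusted p = 0.00187) and -0.20 ± 0.06 with PRP (adjusted p = 0.0142). Median centring ended the PRP call (adjusted p = 0.104). ORC1, the ATP-binding subunit, measured 23.1, 23.9, 25.1 and 25.6 TPM in the control libraries, 25.7, 25.7, 24.8 and 26.2 with plasma and 28.5, 28.1, 27.2 and 24.9 with PRP. PRP replicate 4 overlapped the controls. The gene rose with PRP (0.15, adjusted p = 0.0288) and was not called with plasma (0.07, adjusted p = 0.313) or between PRP and plasma (adjusted p = 0.745). The call with PRP ended without control replicate 1 or 2, or PRP replicate 1, 2 or 3 (adjusted p 0.0545 to 0.0828). It also ended with only the 8 libraries compared (0.0547). The loading factors CDC6 and CDT1 were not called, with differences between -0.11 and 0.04.

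**Figure D2:**
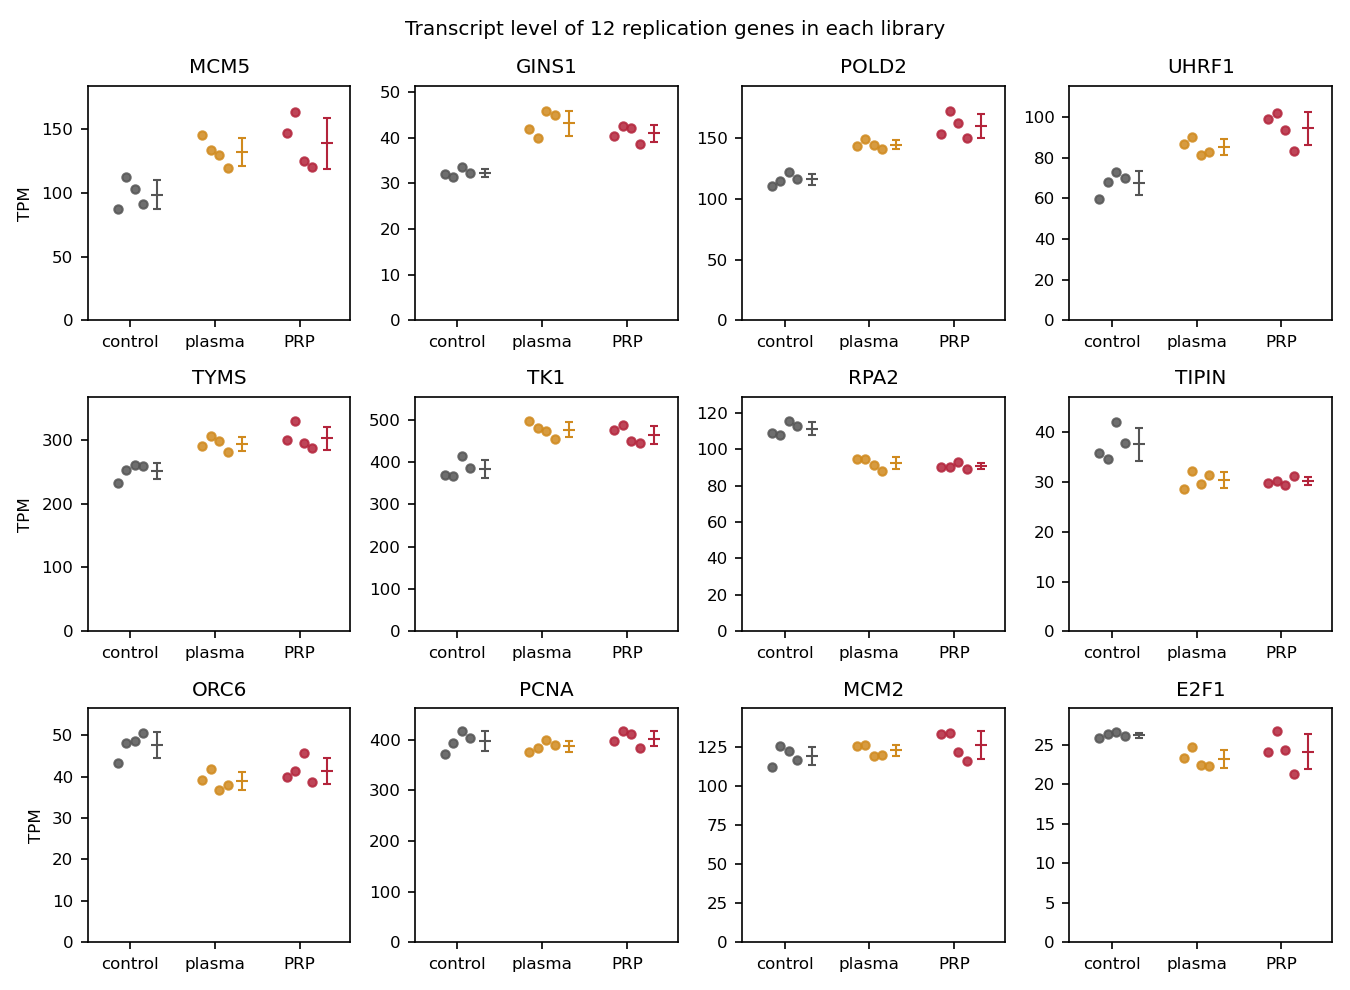
TPM in each of the 12 libraries for 12 of the genes, with control in grey, plasma in orange and PRP in red. Points are single libraries in replicate order, and bars give the mean ± SD of 4, on axes that start at 0. In the first 6 panels every treated library lies above every control library, in RPA2 and TIPIN every treated library lies below, and in PCNA and MCM2 the groups overlap.

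Helicase activation showed 1 call among 6 genes in each comparison, and it was GINS1 both times. GINS1 (chr20:25407673-25448563), a subunit of the GINS complex that joins MCM and CDC45 in the motor, measured 31.9, 31.4, 33.6 and 32.3 TPM in the control libraries, 41.8, 39.9, 45.9 and 44.8 with plasma and 40.2, 42.5, 42.2 and 38.6 with PRP. Treated and control libraries were separated by a gap, from 33.6 in the highest control to 38.6 in the lowest treated library. The mean was 1.33 times that of control with plasma and 1.27 times with PRP, or 0.40 ± 0.05 (SE, adjusted p = 2.15e-05) and 0.33 ± 0.05 (adjusted p = 9.99e-05). The effective length of GINS1 differed by -0.08 with plasma and 0.02 with PRP on the log2 scale, and by 0.10 between PRP and plasma. On reads the order of the 2 treatments was the reverse, with voom differences of 0.40 with plasma and 0.43 with PRP. The other 3 GINS subunits were not called on TPM, with differences from -0.11 to 0.13. For GINS2 the level depended on the estimated transcript length. Its effective length differed by 0.16 with plasma and 0.21 with PRP on the log2 scale, while its depth-scaled reads differed by 0.07 and 0.18 against TPM differences of -0.11 and -0.05. On reads, voom called GINS2 higher with PRP (0.22, adjusted p = 0.00756). The TPM difference with PRP also changed sign after median centring and without PRP replicate 4 (0.01 each). MCM10 and CDC45, which recruit and form the motor, were not called, and CDC45 had a wide control spread (30.6 to 41.5 TPM). GINS4 had the fewest reads of the 46 genes and the widest interval, from -0.34 to 0.23 with plasma.

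Of the sliding clamp and its loader, 1 of 6 genes fell with plasma, and with PRP 1 rose and 1 fell. PCNA (chr20:5114953-5126622), the ring that holds polymerases on DNA, measured 371, 394, 418 and 404 TPM in the control libraries, 376, 383, 400.1 and 390.2 with plasma and 397, 418, 410.4 and 383 with PRP. The groups overlapped almost fully, and the differences of -0.03 ± 0.04 and 0.02 ± 0.04 (SE) were not called (adjusted p = 0.499 and 0.696). The 95% intervals ran from -0.12 to 0.05 with plasma and from -0.07 to 0.11 with PRP. The sign of these differences depended on the scaling with plasma (0.02 after median centring) and on 1 library with PRP (-0.01 without control replicate 1).

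Among the 5 subunits of the RFC clamp loader, RFC4 fell in both comparisons and RFC2 rose with PRP. RFC4 measured 122, 125, 128 and 129.6 TPM in the control libraries, 105, 116, 104 and 111 with plasma and 119, 113, 121 and 107 with PRP. All treated libraries lay below the lowest control library, and the gene fell by 0.21 and 0.14 (adjusted p = 0.00194 and 0.0235). The PRP call was lost with median centring (-0.07, adjusted p = 0.262) and with voom (-0.08, adjusted p = 0.154), and without control replicate 3 or 4, or PRP replicate 2 or 4 (adjusted p 0.0523 to 0.0774). RFC2 measured 84.6, 87.1, 85.98 and 85.4 TPM in the control libraries, 89.9, 96.4, 94.9 and 88.7 with plasma and 98.02, 100.3, 89.1 and 91.7 with PRP. All treated libraries lay above the highest control library, with a call for PRP (0.14, adjusted p = 0.013) and none for plasma (0.11, adjusted p = 0.0525). RFC1, RFC3 and RFC5 were not called, with differences from -0.08 to 0.14.

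Among the 9 polymerase and primase genes, 3 were called higher and 1 lower with plasma, and 4 higher with PRP. POLD2 (chr7:44114680-44124325), an accessory subunit of the lagging strand polymerase delta, measured 110.3, 115, 122 and 116 TPM in the control libraries, 144, 149, 144 and 140.5 with plasma and 153, 172, 162 and 150.0 with PRP. Its lowest treated library exceeded its highest control library, and every PRP library exceeded every plasma library. The mean was 1.25 times that of control with plasma and 1.38 times with PRP, or 0.32 ± 0.04 (SE, adjusted p = 5.69e-05) and 0.46 ± 0.04 (adjusted p = 1.72e-06). The latter was the smallest adjusted p of the 46 genes. POLD3, another accessory subunit, measured 19.5, 15.9, 18.2 and 19.5 TPM in the control libraries, 22.1, 22.8, 20.9 and 23.9 with plasma and 20.7, 21.2, 22.8 and 22.99 with PRP. Treated libraries lay above all controls, and the gene rose by 0.29 and 0.25 (adjusted p = 0.0034 and 0.00635). POLD1, the catalytic subunit of the same enzyme, was not called (adjusted p = 0.388 and 0.364).

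Polymerase epsilon, which extends the leading strand, had its catalytic and an accessory subunit on opposite sides of 0. POLE2, an accessory subunit, measured 17.7, 21.02, 21.01 and 18.8 TPM in the control libraries, 20.5, 21.3, 26.1 and 22.4 with plasma and 24.03, 23.7, 24.1 and 22.8 with PRP. PRP libraries lay above all controls, whereas plasma replicate 1 overlapped them, and the differences were 0.19 (adjusted p = 0.0473) and 0.26 (adjusted p = 0.00866). The plasma call ended without control replicate 1 or 4, plasma replicate 3 or 4, or any 1 PRP library (adjusted p 0.0543 to 0.158). It also ended without the filter on low values (0.0707), with only the 8 libraries compared (0.084) and without limma's variance trend (0.054). POLE, the catalytic subunit, ranged over 18.00 to 20.9 TPM in untreated libraries, 13.3 to 18.4 with plasma and 12.7 to 18.2 with PRP. The difference was -0.29 with plasma, where it was called (adjusted p = 0.0454), and -0.28 with PRP, where it was not (adjusted p = 0.051), and the groups overlapped in both. The plasma call ended without control replicate 1, 2 or 4, plasma replicate 3 or 4, or PRP replicate 3 (adjusted p 0.0546 to 0.137). It also ended without the filter on low values (0.0829) and without the variance trend (0.0578). Of the polymerase alpha and primase subunits, PRIM2 rose with PRP (0.11, adjusted p = 0.0374) and had PRP replicate 4 within the control range. That call ended without control replicate 2 or 3, or PRP replicate 1, 2 or 3 (adjusted p 0.0753 to 0.0973), and with only the 8 libraries compared (0.0653). POLA1, POLA2 and PRIM1 were not called in either comparison. Of the exonic bases of POLA2 53.7%, and of those of PRIM1 26.0%, are shared with another gene on the same strand.

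The 3 subunits of RPA, the single-strand binding complex, went different ways. RPA2 (chr1:27891524-27914797), the subunit phosphorylated during replication stress, measured 109, 108, 115 and 113 TPM in the control libraries, 94.8, 94.7, 91.1 and 88.1 with plasma and 90.2, 90.3, 92.8 and 88.9 with PRP. Every treated library lay below every control library, and the spread within each group was narrow. The mean was 0.83 times that of control with plasma and 0.81 times with PRP, or -0.27 ± 0.04 (SE, adjusted p = 4.1e-05) and -0.29 ± 0.04 (adjusted p = 1.52e-05). RPA1, the large DNA-binding subunit, measured 73.8, 81.8, 79.5 and 78.4 TPM in the control libraries, 93.04, 86.1, 86.1 and 88.9 with plasma and 88.8, 95.97, 86.1 and 81.7 with PRP. It rose by 0.17 and 0.17 (adjusted p = 0.0104 and 0.0122), with PRP replicate 4 just inside the control range. RPA3, the smallest subunit, measured 119, 107, 113 and 114 TPM in the control libraries, 117, 121, 120.3 and 122 with plasma and 130.2, 125, 135 and 118 with PRP. With PRP it rose by 0.16 (adjusted p = 0.00701), with plasma it was not called (0.09, adjusted p = 0.117), and control replicate 1 overlapped both treated groups.

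Of the enzymes that process the lagging strand, the flap nuclease FEN1 measured 92.6, 94.7, 99.9 and 100.4 TPM in the control libraries, 103, 101, 101 and 103 with plasma and 109, 114, 109 and 97.9 with PRP. Plasma libraries lay just above all controls without a call (0.07, adjusted p = 0.2). With PRP FEN1 was called (0.15, adjusted p = 0.0129), and PRP replicate 4 lay within the control range. LIG1, the ligase that seals Okazaki fragments, measured 38.2, 39.5, 36.1 and 35.8 TPM in the control libraries, 46.9, 42.6, 41.4 and 40.7 with plasma and 47.2, 47.5, 41.6 and 37.04 with PRP. It rose by 0.19 and 0.20 (adjusted p = 0.0425 and 0.033), and PRP replicate 4 overlapped the controls. The plasma call ended without control replicate 1, 3 or 4, plasma replicate 1, 2 or 3, or PRP replicate 3 (adjusted p 0.0505 to 0.122). It also ended without the filter on low values (0.0698) and without limma's variance trend (0.0578). The PRP call ended without control replicate 3 or 4, or PRP replicate 1 or 2 (adjusted p 0.0733 to 0.106), and without the filter (0.0557). RNASEH2A, the catalytic subunit of RNase H2, which removes ribonucleotides, was not called (adjusted p = 0.0788 and 0.187).

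At the fork and in newly made chromatin, UHRF1 rose and TIPIN fell in both comparisons, and CHAF1A and CHAF1B, subunits of the histone chaperone CAF-1, were not called. UHRF1 (chr19:4903080-4962154), which recruits the maintenance DNA methyltransferase to newly copied DNA, measured 59.7, 68.1, 73.2 and 69.9 TPM in the control libraries, 86.9, 90.3, 81.4 and 83.01 with plasma and 99.3, 102, 93.5 and 83.5 with PRP. All treated libraries lay above all controls, and 3 of the 4 PRP libraries lay above all plasma libraries. The mean was 1.26 times that of control with plasma and 1.40 times with PRP, or 0.33 ± 0.07 (SE, adjusted p = 0.00118) and 0.48 ± 0.07 (adjusted p = 5.58e-05). TIPIN (chr15:66336191-66386717), the partner of TIMELESS in the complex that steadies the fork, measured 35.7, 34.5, 42.1 and 37.7 TPM in the control libraries, 28.7, 32.1, 29.6 and 31.5 with plasma and 29.7, 30.1, 29.5 and 31.3 with PRP. All treated libraries lay below all controls, and the gene fell by 0.29 and 0.30 (adjusted p = 0.00119 and 0.000713). CHAF1A and CHAF1B had differences from -0.14 to 0.00.

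All 4 genes of deoxynucleotide supply were called in both comparisons, 3 of them higher and RRM1 lower. Of all genes tested, 20.3% were called higher and 29.0% lower with plasma, and 21.7% and 31.5% with PRP. TYMS (chr18:657653-673578), thymidylate synthase, makes the thymidine nucleotide from its uridine form and measured 233, 253, 259.6 and 259.5 TPM in the control libraries, 290.5, 306, 297 and 281 with plasma and 299, 329, 295 and 287 with PRP. The treated libraries all lay above the controls, and the gene rose by 0.23 ± 0.05 with plasma (SE, adjusted p = 0.0014) and 0.27 ± 0.05 with PRP (adjusted p = 0.000326). Of its exonic bases, 58.2% are shared with ENOSF1 on the opposite strand. ENOSF1, chosen after its values were seen, was listed at 36.01 to 38.9 TPM in untreated libraries, 39.9 to 42.5 with plasma and 40.00 to 45.4 with PRP, with differences of 0.12 and 0.15 (adjusted p = 0.0538 and 0.0162). The call of ENOSF1 with PRP ended without PRP replicate 1 (adjusted p = 0.0559). Reads of the pair within the shared bases could not be told apart if strand was not used. TK1 (chr17:78174079-78187204), the thymidine kinase that salvages thymidine in S phase, measured 369, 368, 414 and 386 TPM in the control libraries, 497, 481, 474 and 455 with plasma and 477, 488, 449 and 445 with PRP. It was the most abundant of the 46 genes in both treated groups, its treated libraries lay above all controls, and it rose by 0.31 ± 0.04 and 0.27 ± 0.04 (adjusted p = 6.24e-05 and 0.000151).

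Ribonucleotide reductase, which turns ribonucleotides into deoxynucleotides, is built from the large subunit RRM1 and the small subunit RRM2. RRM2 (chr2:10122568-10211010) measured 175, 183, 195 and 192 TPM in the control libraries, 203, 212, 205 and 197 with plasma and 218, 228, 221 and 202 with PRP. All treated libraries lay above the highest control library, the rise with PRP was 0.22 ± 0.04 (SE, adjusted p = 0.000765), and that with plasma was 0.13 ± 0.04 (adjusted p = 0.0215). The plasma call ended without control replicate 1 or 2 or plasma replicate 2 (adjusted p 0.0539 to 0.0656). Another gene on the same strand shares 27.9% of the exonic bases of RRM2. RRM1 (chr11:4094685-4138932) measured 141, 152, 154 and 152 TPM in the control libraries, 140.1, 135, 127 and 133 with plasma and 139.7, 139.8, 134 and 119 with PRP. All treated libraries lay below all controls, and the differences were -0.16 ± 0.05 and -0.17 ± 0.05 (adjusted p = 0.0187 and 0.0128). Median centring ended both calls of RRM1 (adjusted p = 0.0765 and 0.0694), as did voom (0.0871 and 0.0741), and the plasma call also ended without plasma replicate 3 (0.0601).

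E2F1, a transcription factor that drives many genes of this set, measured 25.8, 26.3, 26.6 and 26.02 TPM in the control libraries, 23.3, 24.7, 22.4 and 22.3 with plasma and 24.04, 26.7, 24.4 and 21.3 with PRP. Plasma libraries lay below all controls, whereas PRP replicate 2 lay above them and PRP replicate 4 was the lowest of the 12. E2F1 fell with plasma by 0.17 (adjusted p = 0.0322) and was not called with PRP (-0.12, adjusted p = 0.115). The plasma call was lost with median centring (-0.11, adjusted p = 0.102) and with voom (-0.11, adjusted p = 0.0839). It also ended without control replicate 2, 3 or 4, or plasma replicate 1, 3 or 4 (adjusted p 0.0525 to 0.0816).

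Because TPM is scaled by length, subunits of the same complex can be set side by side within a library. The ratios below were picked once their values had been seen, and carry no test. RRM2 over RRM1 was 1.24, 1.20, 1.26 and 1.26 in control, 1.45, 1.57, 1.61 and 1.49 with plasma and 1.56, 1.63, 1.64 and 1.70 with PRP. The control ratios lay close together and below all treated ratios. RPA1 over RPA2 was 0.680, 0.759, 0.689 and 0.695 in control, 0.982, 0.909, 0.944 and 1.01 with plasma and 0.985, 1.06, 0.927 and 0.919 with PRP. In control RPA1 was therefore listed below RPA2 in every library, and with treatment the pair came close to equal. The ratio of POLD2 to POLD1 was 2.70 ± 0.0366 in control, 3.21 ± 0.112 with plasma and 3.54 ± 0.255 with PRP (mean ± SD). MCM5 over MCM4, 2 subunits that enter the ring in equal number, was 0.385 ± 0.0345, 0.519 ± 0.0327 and 0.527 ± 0.0357. Shifts in effective length enter this ratio: -0.07 with plasma and -0.05 with PRP for MCM5, and 0.06 and 0.07 for MCM4, on the log2 scale. On reads scaled by depth, MCM5 differed by 0.39 and 0.48 and MCM4 by 0.09 and 0.14. GINS1 over GINS2 was 1.45 ± 0.0362, 2.11 ± 0.293 and 1.91 ± 0.106, with the shifts in effective length of GINS1 and GINS2 included. In all of these 5 ratios no treated library overlapped a control library. Of the exonic bases of POLD1 12.1% are shared with another gene on the same strand. Reads shared with overlapping genes can enter the ratios with RRM2 and POLD1, and their part was not tested.

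**Figure D3:**
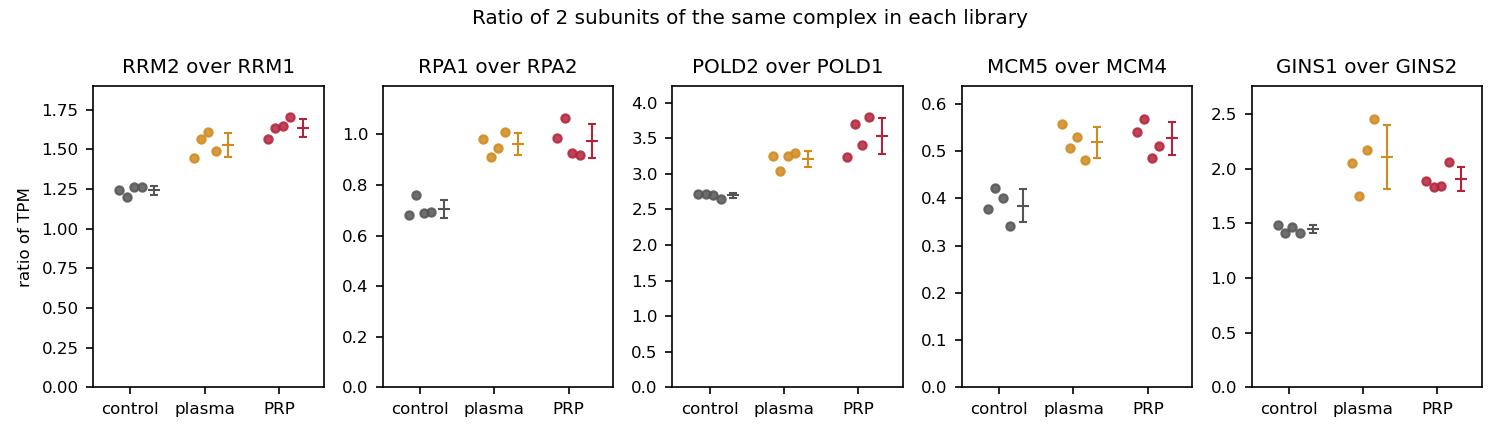
Ratio of TPM between 2 subunits of the same complex in each library, for 5 pairs, on axes that start at 0. Points are libraries, and bars give the mean ± SD of 4. Every treated point lies above every control point, and for RRM2 over RRM1 the controls lie at 1.20 to 1.26.

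Whether PRP, which carries platelets, acted on these genes beyond plasma was read from the direct comparison. None of the 46 genes was called between PRP and plasma, where 0.0639% of all genes (8 of 12517) were called in either direction. The smallest adjusted p of the 46 was that of POLD2 (0.14 ± 0.04, SE, unadjusted p = 0.00747, adjusted p = 0.424), and it was the only 1 with an unadjusted p under 0.05. Voom called 0 of the 46 as well, as did every other alternative. The 95% intervals of the 46 differences all lay between -0.33 and 0.29, and a p above the threshold does not show that plasma and PRP act alike. For the next largest, UHRF1, the difference was 0.14 ± 0.07 (adjusted p = 0.638).

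The replication machinery has further subunits and helpers outside these 46. Of 28 other replication factors, 4 were called higher and 12 lower with plasma, and 6 higher and 13 lower with PRP, with medians of -0.07 and -0.11. The shares over all genes, to be read beside the counts of this and the following lists, were 20.3% higher and 29.0% lower with plasma, and 21.7% and 31.5% with PRP. After median centring the split of the 28 was 5 and 8 with plasma and 7 and 7 with PRP, where 26.4% and 22.4% of all genes were called with plasma, and 28.2% and 24.1% with PRP. The largest difference in this list was that of RNASEH2C, an accessory subunit of RNase H2, which averaged 38.7 TPM in untreated libraries, 72.2 with plasma and 80.7 with PRP (0.88 and 1.04, adjusted p = 8.78e-09 and 2.54e-09). Its partner RNASEH2A, among the 46, was not called. RECQL4, a helicase that acts at origin firing, fell by 0.50 and 0.57, MCM9 by 0.42 and 0.48, and DSCC1, of an alternative clamp loader, by 0.41 and 0.37 (adjusted p at most 0.000206).

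Of 11 chromatin genes that work behind the fork, 3 were called higher and 2 lower with plasma, and 4 higher and 2 lower with PRP. SSRP1, a subunit of the histone chaperone FACT, rose by 0.88 and 1.04, and CDCA7 by 0.85 and 0.95 (adjusted p at most 2.09e-07). The histone chaperone ASF1A rose by 0.56 and 0.61, whereas RBBP4 fell by 0.20 and 0.19. DNMT1, the methyltransferase that UHRF1 recruits, was not called (-0.02 and -0.07, adjusted p = 0.858 and 0.581), and its sign changed under median centring with plasma (0.03) and voom with PRP (0.02).

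Among 12 further genes of deoxynucleotide metabolism, 5 rose and 3 fell in each comparison. RRM2B, the p53-regulated alternative to RRM2, fell from 45.7 ± 4.24 TPM (mean ± SD) in untreated cells to 33.2 ± 1.61 with plasma and 31.5 ± 1.17 with PRP (-0.45 and -0.52, adjusted p = 4.12e-05 and 9.01e-06). RRM2 over RRM2B was 4.11 ± 0.547 in control, 6.16 ± 0.312 with plasma and 6.90 ± 0.442 with PRP. NUDT1, which clears oxidised nucleotides, rose by 0.51 and 0.56, and the nucleoside diphosphate kinase NME1 by 0.39 and 0.62, while SHMT1, a folate enzyme, fell by 0.32 and 0.34. Of 16 enzymes of purine and pyrimidine synthesis, 2 were called higher and 5 lower with plasma, and 3 higher and 4 lower with PRP. They included IMPDH2, the guanine nucleotide enzyme (-0.35 and -0.43), PPAT (-0.36 and -0.41), PRPS1 (-0.32 and -0.20) and ADSS2 (-0.18 and -0.18), which all fell. PRPS1 was no longer called with PRP under median centring (adjusted p = 0.0624) or voom (0.272).

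Of 14 other E2F, DP and pocket protein genes, 4 rose and 4 fell in each comparison. RBL1, a pocket protein that restrains E2F, rose by 0.66 and 0.82, and RB1 fell by 0.37 and 0.40 (adjusted p at most 1.26e-05). LIN54, of the DREAM complex, fell by 0.27 and 0.31. TFDP2, an E2F partner, rose on TPM (0.50 and 0.40), with an effective length that differed by -0.43 and -0.42 on the log2 scale. With voom on reads TFDP2 had differences of 0.16 with plasma (adjusted p = 0.0168) and 0.07 with PRP, where the call ended (adjusted p = 0.236). On estimated reads scaled by depth alone its plasma call ended too (0.12, adjusted p = 0.0527). Of 7 S phase cyclins, kinases and related genes, 2 were called higher and 3 lower with plasma, and 2 higher and 2 lower with PRP. CCNA2, cyclin A, rose by 0.62 and 0.71 and SKP2 by 0.33 and 0.18, while CCNE2, cyclin E, fell by 0.23 and 0.20. The PRP call of SKP2 ended without control replicate 1 or PRP replicate 1 (adjusted p = 0.0515 and 0.0548), and that of CCNE2 ended after median centring (0.052). CDK2 fell with plasma on TPM (-0.12, adjusted p = 0.016), a call that ended after median centring (0.324) and with voom (0.644). Of 8 replication checkpoint genes, 0 were called higher and 3 lower with plasma, and 1 higher and 4 lower with PRP. Subunits of the 9-1-1 clamp differed: RAD9A fell by 0.27 and 0.31 and HUS1 by 0.17 and 0.26, and RAD1 rose with PRP (0.22, adjusted p = 0.0257). HUS1 with plasma lost its call after median centring and without control replicate 4 or plasma replicate 3 or 4 (adjusted p 0.0514 to 0.106). RAD1 lost its call without control replicate 2 or 4, or PRP replicate 1, 2 or 4 (0.05 to 0.0776). ATRIP, which brings the ATR kinase to RPA, fell by 0.33 and 0.34 (adjusted p = 0.0147 and 0.0118).

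Genes of mitosis, the phase that follows replication, were set beside the replication genes without a test of the difference. Of 30, 19 were called higher and 1 lower with plasma, and 20 higher and 1 lower with PRP, with medians of 0.23 and 0.30 beside 0.05 and 0.08 for the 46 replication genes and -0.05 and -0.06 over all genes. Over all genes 20.3% were called higher and 29.0% lower with plasma, and 21.7% and 31.5% with PRP. PLK1 rose by 0.92 and 1.04, BIRC5 by 0.69 and 0.81, AURKA by 0.55 and 0.64, and CCNB2 by 0.36 and 0.35 (adjusted p at most 1.93e-05). MKI67, a general marker of cycling cells, was not called (0.15 and 0.12, adjusted p = 0.439 and 0.516). Of 10 targets of p53, 2 rose and 6 fell in each comparison, with medians of -0.27 and -0.28, beside the same shares and medians over all genes. CDKN1A, the cyclin-dependent kinase inhibitor p21, fell by 0.38 and 0.38 (adjusted p = 2.14e-05 and 1.69e-05), MDM2 by 0.56 and 0.56, and ZMAT3 by 0.42 and 0.53. GDF15 went the other way, by 0.83 and 0.70.

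**Figure D4:**
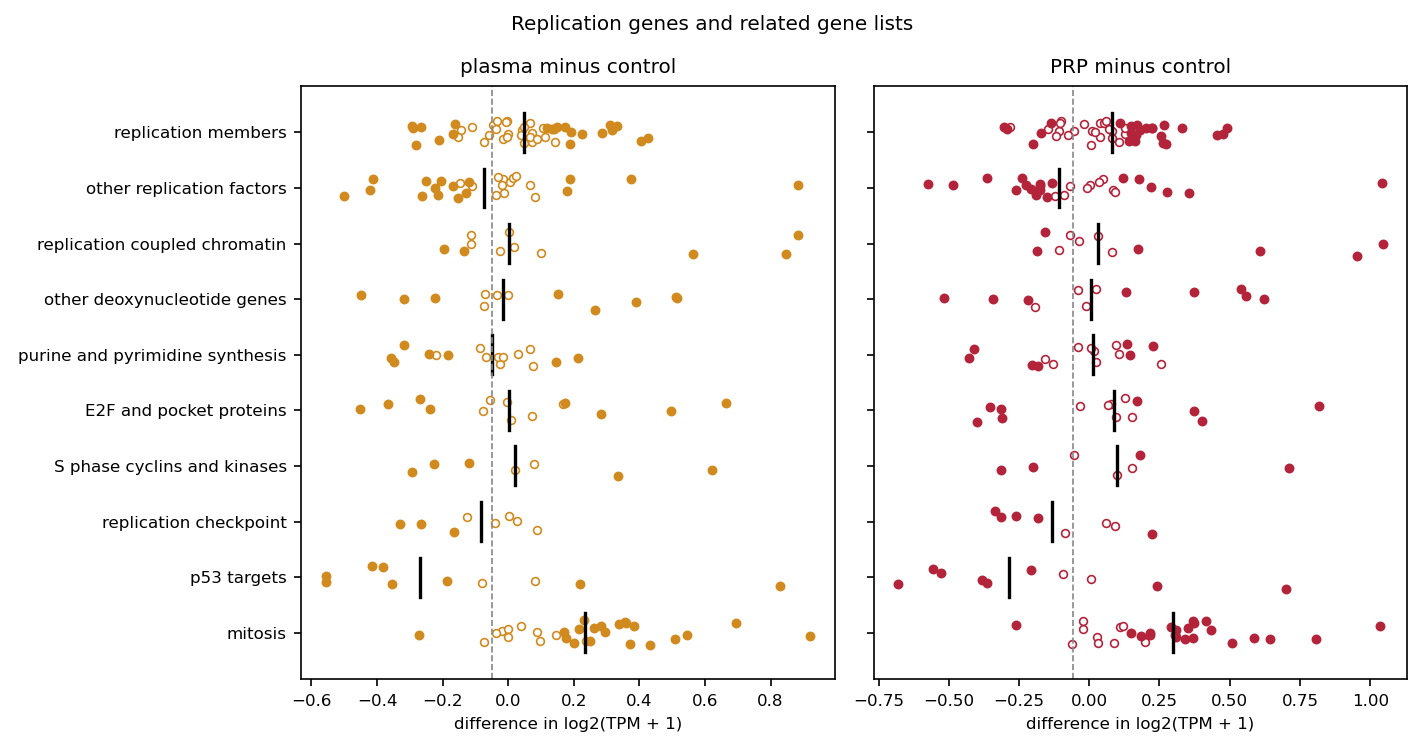
Difference in log2(TPM + 1) from control for the genes of each list, with plasma on the left and PRP on the right. Each point is a gene, filled where the adjusted p was under 0.05, black bars mark list medians and the dashed line the median of all genes tested. The black bar of the mitosis list stands at 0.23 and 0.30, that of the 46 replication genes at 0.05 and 0.08, and that of the p53 targets at -0.27 and -0.28.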

How the data were processed

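The labels' protocols name an RNeasy extraction, capture of polyadenylated RNA and a Watchmaker mRNA kit for the libraries. Per the submitters' processing notes, Salmon and the human build hg38 were used. Versions, the transcript set and use of strand are not given in the sources used here. Per the file headers, the authors deposited length, effective length, TPM and estimated counts for each of 20375 genes and each of 12 libraries. Decimal commas in these values kept the columns from being registered as counts, so the main test used TPM. Estimated reads entered in alternatives alone (voom and reads scaled by depth).

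Differences were tested on log2(TPM + 1) with limma-trend (limma 3.58.1 under R 4.3.3). A gene entered if 4 or more libraries reached 1 TPM, which left 12517 genes. The fit held 1 term per group over all 12 libraries (9 residual degrees of freedom), and was two-sided with Benjamini-Hochberg adjustment over all genes at 0.05. The pseudocount understates changes of low genes, and a change in estimated length moves TPM. Alternatives covered pseudocount, filter, scaling, estimated reads (voom), variance model, replicate block and libraries left out. No 2 replicates held identical values or agreed within sampling noise.

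The members and lists were chosen with earlier results of these data known. Values in every library are given for members called against control, up to 24 by smallest adjusted p, and for E2F1, PCNA, MCM2, RRM2 and TYMS. From each other list the 4 smallest adjusted p at most are named, plus MKI67, CCNE2, CDKN1A, RRM2B and DNMT1; 1 further gene of this rule is not reported here. Of the 8 epithelial, 6 platelet, 5 erythroid and 7 leukocyte markers only sums are given. Gene positions and promoters are from RefSeq (GRCh38.p14), with promoters for 40 of the 46 genes, and shared exonic bases are from GENCODE.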

Additional observations from a re-analysis of the deposited data

Results flagged for a closer look

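In 6 of 138 groups of 4 values (46 genes in 3 groups), 1 library stood far from the other 3 relative to the group's range, where about 6.9 such groups are expected by chance at 1 in 20. PRP replicate 4 accounted for 3 of them: CDC45 at 36.1 TPM against 40.4 to 41.2 in the other PRP libraries, PRIM2 at 46.1 against 50.3 to 51.0, and POLD1 at 39.6 against 46.4 to 47.6. CDC45 was also low in plasma replicate 4, at 36.6 TPM against 37.6 to 37.8. RFC1 was high in plasma replicate 2, at 19.2 TPM against 17.0 to 17.4. CHAF1A was low in control replicate 1, at 44.6 TPM against 49.9 to 50.7. Without PRP replicate 4, 19 of the 46 genes rose and 4 fell with PRP.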

How the results depend on the processing

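Of 3382 differences recomputed for 141 results on named genes under the alternatives, 3210 kept their direction and their side of the threshold, 120 lost the call, 34 newly passed it and 18 changed sign. Counts of the replication and nucleotide supply genes that rose with plasma were 24 with voom and 7 without the 3 libraries numbered 1, and 10 to 14 with 1 library left out. Counts that fell with plasma were 4 to 8 with 1 library left out. With PRP, 12 rose without the libraries numbered 1. The number that fell with PRP was 3 with voom, 2 after median centring and 8 without the libraries numbered 1. Over all genes, PRP against plasma gave 4 without a filter, 16 with only the 8 libraries compared, 4 without trend, 21 with library weights, 2 without the libraries numbered 1 and 4 to 14 with 1 library left out, against 8. The cause was not tested.

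Values that changed sign were all from differences that were not called on TPM. For PCNA they were 0.028 (voom) and 0.022 (median centring) with plasma, and with PRP -0.006 without the libraries numbered 1 and -0.012 to 0.045 with 1 library left out. For DNMT1 with plasma they were 0.032 after median centring and -0.062 to 0.025 with 1 library left out, and with PRP 0.02 with voom and -0.14 to 0.035 with 1 library left out. For GINS2 they were 0.103 (voom) and 0.073 (CPM from estimated reads) with plasma, and with PRP 0.223 (voom), 0.18 (CPM), 0.01 (median centring) and -0.089 to 0.008 with 1 library left out. CDK2 with PRP gave 0.01 with voom and after median centring, and MKI67 with PRP -0.002 to 0.22 with 1 library left out.

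With the replicate block, 16 genes rose and 8 fell with plasma, 19 rose and 6 fell with PRP, and 0 differed between PRP and plasma. Over all genes the block gave 6600, 7105 and 9 calls. The replicate numbers share no stated origin: of 12 same-numbered pairs 5 had a correlation of deviations over 0.1 (from -0.07 to 0.30), and 4 libraries correlated best with their own number in both other groups.

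GINS4, POLE2 and CHAF1B had the fewest reads, with as few as 470, 564 and 741 in a library. Whether depth limited their estimates was not tested. With 4 libraries per group, transcript levels do not show enzyme activity or replication rate, which were not measured.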
